A study of Homo sapiens with 18 samples.

Results

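The comparison described here is that of KDM5C shRNA with a scrambled shRNA (SCR) in 786-O cells that carry VHL, written VHL+/+. Its members were taken from the array titles alone: 3 arrays of VHL+/+ cells with KDM5C shRNA and 3 arrays of VHL+/+ cells with SCR, 6 of the 18 arrays in the series. 786-O is an established line of human clear cell renal cell carcinoma (ccRCC) without functional VHL. VHL had been put back into the VHL+/+ cells, so that KDM5C shRNA was used here where VHL was present in both groups. The knockdown was stable and rested on 1 KDM5C construct. The other 12 arrays, used for comparison and for the estimate of the spread, came from 4 further groups of 3, namely PBRM1 shRNA in VHL+/+ cells and each of the 3 shRNAs in VHL-/- cells. In every group replicates 1 and 2 lay on chip 1 and replicate 3 on chip 2. No source states that the replicates were separate cultures, so the p-values measure the spread between these arrays, which may be technical.

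KDM5C is a demethylase of lysine 4 of histone H3 (H3K4), a mark found at active promoters and enhancers, and it acts both as a repressor and in the support of expressed genes. Its gene lies on the X chromosome and is one of the tumor suppressors that are often mutated in ccRCC, along with VHL, the ubiquitin ligase subunit that removes the hypoxia-inducible factors (HIF), and PBRM1, a subunit of the PBAF chromatin remodeling complex. Type I interferon signaling, which recurs below, runs from the receptor through JAK kinases to ISGF3, a complex of STAT proteins and IRF9 that binds interferon-stimulated response elements in the promoters of antiviral genes.

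The values are log2 signals for 13141 genes. Correlations between arrays of the same group were 0.985 to 0.990 for KDM5C shRNA and 0.985 to 0.992 for SCR, over genes, which are not independent replicates. KDM5C itself has 0 rows in the table, as has HIF1A, so the knockdown could not be checked at the level of its mRNA. The labelled cell type was checked on marker genes. Of 18 markers of kidney epithelium and ccRCC, 11 are in the table. Their median mean signal was at the 85.3 percentile of all genes, with a range of 4.77 (CUBN) to 99.7. EPCAM and KRT18 lay at the 39.1 and 41.1 percentiles. The summed log2 signal of the 11 was 105.56 to 107.08 in SCR and 106.69 to 108.49 in KDM5C shRNA arrays. Among them, CA12 and KRT19 were called higher. Over all genes 0.715% were called higher and 0.426% lower, by the thresholds given below. Counts of calls in marker sets this small are not read as results. Leukocyte and endothelial markers were represented by 3 genes each, with medians at the 21.4 and 11.1 percentiles and 0 called genes, and fibroblast and smooth muscle markers by 5 genes, with a median at the 17.8 percentile. The highest leukocyte marker was CD68 at the 68.0 percentile, and the highest fibroblast and smooth muscle marker was ACTA2 at 66.1. The summed signal of the fibroblast markers was 36.62 to 37.34 in SCR and 35.27 to 36.39 in KDM5C shRNA arrays, and LUM was the member called lower. COL1A1, COL1A2 and COL3A1, at the 17.8, 8.14 and 7.0 percentiles, were not called. All arrays are labelled as the 786-O line, so these signals are not read as shares of cell types. The part of LUM in the other results was not tested.

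KDM5C shRNA changed 150 of 13141 genes in VHL+/+ cells, 1.14% of those tested, by limma with a chip term, at a fold change of 1.5 or more and a Benjamini-Hochberg adjusted p below 0.05. Of these, 94 were higher (0.715%) and 56 were lower (0.426%) with KDM5C shRNA. The changes were mostly modest: the median log2 fold change was 0.75 among the genes called higher and -0.66 among those called lower, and 15 and 8 genes, respectively, reached a fold change of 2. The median 95% confidence interval of a gene reached 0.20 on the log2 scale to either side, a fold of 1.15. At adjusted p alone 551 genes (4.19%) passed, 2.39% of all genes higher and 1.8% lower, and of these 401 were below the fold threshold. Conversely, 27 genes differed by at least 1.5-fold without passing, 21 with lower and 6 with higher means. The lowest of these was PABPC1, the cytoplasmic poly(A)-binding protein, at 12.85, 11.50 and 12.11 with SCR and 10.92, 10.83 and 10.80 with KDM5C shRNA. The log2 fold change of PABPC1 was -1.30 (SE 0.41, adjusted p = 0.0891). Its arrays did not overlap, and the spread among the SCR arrays was wide.

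**Figure D1:**
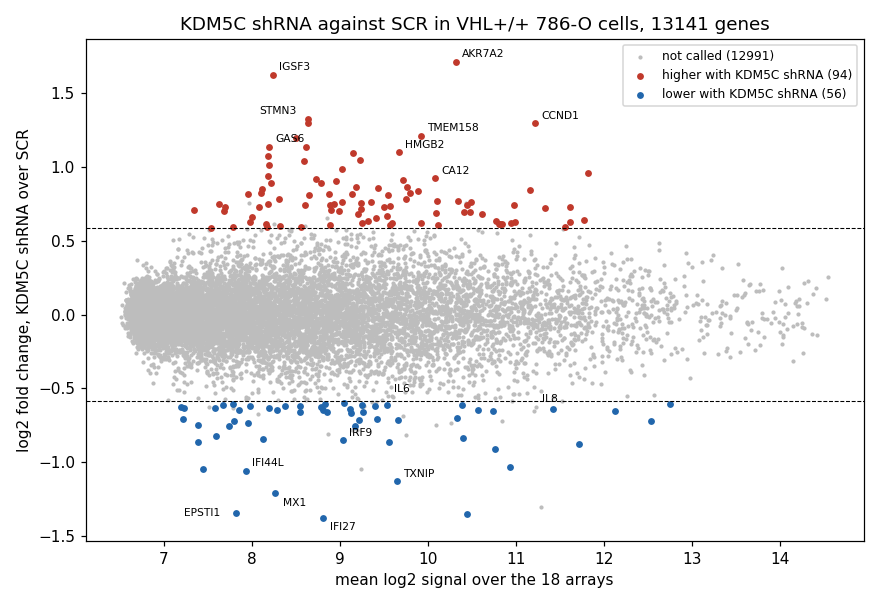
Log2 fold change of each of the 13141 genes, KDM5C shRNA over SCR in VHL+/+ cells (vertical axis), against the mean log2 signal over all 18 arrays (horizontal axis). Red points are the 94 genes called higher, blue points the 56 called lower and grey points the rest, and dashed lines mark a fold change of 1.5. Called genes lie toward the brighter side, with median signal percentiles of 78.4 (higher) and 72.55 (lower). AKR7A2 (1.71) and IFI27 (-1.38) are the extremes among them.

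The largest rise was that of AKR7A2, an aldo-keto reductase that reduces reactive aldehydes. Its log2 signal was 9.17, 9.35 and 9.19 with SCR and 10.99, 10.89 and 10.97 with KDM5C shRNA. The log2 fold change was 1.71 (SE 0.11, adjusted p = 2.36e-07), which is 3.28-fold. The 3 arrays of each group lay close together and the groups were far apart. AKR7A3, a neighboring gene of the same family, read 7.78, 7.80 and 7.76 with SCR and 8.99, 8.91 and 9.04 with KDM5C shRNA, 2.29-fold higher (log2 fold change 1.20, SE 0.09, adjusted p = 1.18e-06). The paralogs are similar in sequence, and probes that read both would not separate them. AKR1B10, an aldo-keto reductase of another branch, read 8.83, 8.67 and 9.10 with SCR and 9.75, 9.35 and 9.79 with KDM5C shRNA (log2 fold change 0.76, SE 0.20, adjusted p = 0.0428). Its call did not survive the loss of an array other than KDM5C shRNA replicate 2, with adjusted p of up to 0.146.

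IGSF3, an immunoglobulin superfamily membrane protein, had the smallest adjusted p of the comparison. It read 7.19, 7.17 and 7.09 with SCR and 8.80, 8.77 and 8.74 with KDM5C shRNA, and the log2 fold change was 1.62 (SE 0.07, adjusted p = 4.73e-10). The gap between the groups was many times the spread within either. STMN3, a stathmin family protein that regulates microtubules and is best known from neurons, was 2.51-fold higher (SCR 8.10, 8.13 and 8.04, KDM5C shRNA 9.64, 9.38 and 9.23, adjusted p = 0.000992). Its relative STMN1, which destabilizes microtubules in dividing cells, rose as well, from 7.63, 7.70 and 7.36 to 8.41, 8.35 and 8.40 (log2 fold change 0.82, SE 0.10, adjusted p = 0.000166). GAS6, the ligand of the TYRO3, AXL and MERTK receptors, was 2.20-fold higher, at 7.62, 7.51 and 7.17 with SCR and 8.57, 8.87 and 8.27 with KDM5C shRNA (adjusted p = 3.11e-06). ARPC4, a subunit of the Arp2/3 complex that nucleates branched actin, was 2.14-fold higher, at 8.52, 8.66 and 8.39 with SCR and 9.74, 9.62 and 9.50 with KDM5C shRNA (adjusted p = 3.66e-07). In all of these genes the lowest KDM5C shRNA array was above the highest SCR array, as in 9.02% of all genes tested.

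CCND1, the D-type cyclin that drives the passage through G1 and a HIF target in ccRCC cells, read 9.46, 9.55 and 9.54 with SCR and 10.95, 10.82 and 10.67 with KDM5C shRNA. It was 2.45-fold higher (log2 fold change 1.30, SE 0.12, adjusted p = 8.83e-06). HMGB2, a chromatin protein abundant in dividing cells, read 9.15, 9.16 and 8.41 with SCR and 10.28, 9.88 and 9.84 with KDM5C shRNA, 2.14-fold higher (adjusted p = 0.000576). TMEM158, a membrane protein first described as induced by RAS, read 9.09, 8.98 and 8.26 with SCR and 10.35, 10.26 and 9.35 with KDM5C shRNA (log2 fold change 1.21, SE 0.20, adjusted p = 0.00285). In both HMGB2 and TMEM158, SCR replicate 3, which lay on chip 2, was the lowest of the 6 arrays. Without the chip term TMEM158 no longer passed (adjusted p = 0.160). The 2 groups of arrays of C2CD2, TMEM109, an endoplasmic reticulum membrane protein, and KTELC1 (now POGLUT1, a glucosyltransferase that modifies Notch) also stood apart, with rises of 2.11-, 2.06- and 2.06-fold and adjusted p of 3.66e-07, 0.0013 and 2.04e-06.

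The remaining 3 of the 15 largest rises had SCR arrays that disagreed. EPR1 read 7.25, 8.20 and 7.87 with SCR and 9.01, 9.08 and 9.11 with KDM5C shRNA (log2 fold change 1.29, SE 0.27, adjusted p = 0.0119). LOC389286 read 7.42, 8.32 and 7.70 with SCR and 9.00, 8.99 and 8.86 with KDM5C shRNA (log2 fold change 1.13, SE 0.23, adjusted p = 0.0109). EFCBP1, now NECAB1, a calcium-binding protein, read 6.99, 7.89 and 7.30 with SCR and 8.39, 8.37 and 8.46 with KDM5C shRNA (log2 fold change 1.01, SE 0.23, adjusted p = 0.0217). In all 3, SCR replicate 1 was the lowest array, and without it the adjusted p was 0.0759 for EPR1, 0.0689 for LOC389286 and 0.134 for EFCBP1. EFCBP1 was also lost without SCR replicate 3 (0.0855) and without each KDM5C shRNA array (0.0620 to 0.0838). EPR1 is transcribed antisense to BIRC5, which encodes survivin and whose own log2 fold change was 0.37 (SE 0.16, adjusted p = 0.233), and it is not given whether its probe tells the strands apart.

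**Figure D2:**
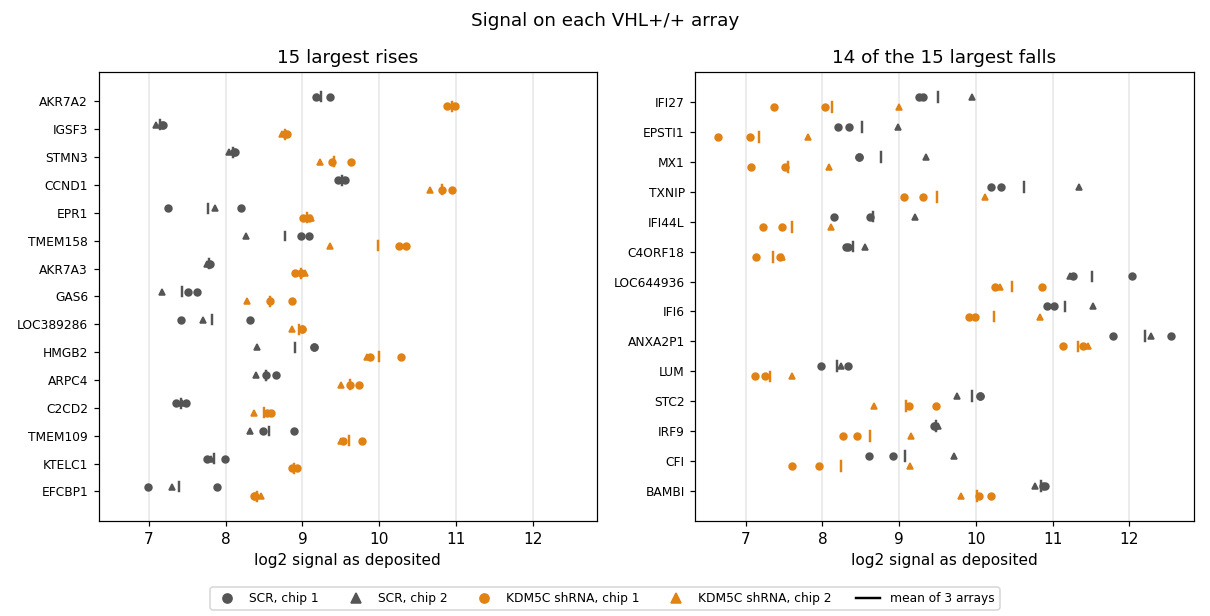
Log2 signal as deposited (horizontal axis) of the 15 genes with the largest rises (left) and 14 of the 15 with the largest falls (right) on each VHL+/+ array. Grey marks are SCR and orange marks KDM5C shRNA, circles are chip 1 and triangles chip 2, and the bars are means of 3 arrays. These are called genes whose arrays do not overlap once the chip effect is removed, so their separation is largely fixed by the choice. As deposited, the groups do not overlap in any of these genes except CFI, and in 17.9% of all genes tested. In genes such as TXNIP and CFI the chip 2 array is displaced the same way in both groups.

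The falls were led by interferon-stimulated genes. Of the 15 largest falls, 6 were of this kind (IFI27, EPSTI1, MX1, IFI44L, IFI6 and IRF9). IFI27, an interferon-induced mitochondrial membrane protein, read 9.26, 9.31 and 9.95 with SCR and 7.36, 8.03 and 9.00 with KDM5C shRNA. The log2 fold change was -1.38 (SE 0.26, adjusted p = 0.00699), 2.60-fold lower, and without the chip term the adjusted p was 0.0527. EPSTI1, induced by interferon and by contact of epithelium with stroma, read 8.35, 8.20 and 8.99 with SCR and 6.64, 7.06 and 7.81 with KDM5C shRNA (log2 fold change -1.34, SE 0.24, adjusted p = 0.00581). MX1, the dynamin-like GTPase that blocks RNA viruses, read 8.48, 8.48 and 9.35 with SCR and 7.06, 7.52 and 8.09 with KDM5C shRNA (log2 fold change -1.21, SE 0.28, adjusted p = 0.0215). IFI44L, a cytoplasmic interferon-induced protein, read 8.62, 8.15 and 9.21 with SCR and 7.22, 7.48 and 8.11 with KDM5C shRNA (log2 fold change -1.06, SE 0.26, adjusted p = 0.0279). In each of these the chip 2 array was the highest of its group, and the KDM5C shRNA array was the lower on both chips.

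IFI6, an interferon-induced membrane protein that opposes apoptosis, read 10.92, 11.02 and 11.52 with SCR and 9.91, 9.98 and 10.84 with KDM5C shRNA (log2 fold change -0.91, SE 0.23, adjusted p = 0.0340). IRF9, the DNA-binding subunit of ISGF3, read 9.46, 9.46 and 9.50 with SCR and 8.27, 8.45 and 9.15 with KDM5C shRNA (log2 fold change -0.85, SE 0.15, adjusted p = 0.00399). The SCR arrays of IRF9 lay within a narrow range, and KDM5C shRNA replicate 3, on chip 2, was nearest to them. The called interferon genes outside the 15 included SAMD9, an antiviral effector, at a log2 fold change of -0.66 (SE 0.16, adjusted p = 0.0265). Several of these calls depended on single arrays: with 1 array left out the highest adjusted p was 0.113 for MX1, 0.139 for IFI44L, 0.119 for IFI6 and 0.139 for SAMD9, and IFI6 was lost with any of the 6. The calls of IFI27, EPSTI1 and IRF9 held without any of them. Without the chip term IRF9, MX1, IFI44L, IFI6 and SAMD9 no longer passed (adjusted p = 0.0893, 0.0570, 0.0915, 0.208 and 0.153).

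The promoters of these genes were searched for the core of the interferon-stimulated response element, GAAA followed by any 2 bases (NN) and GAAA again, on both strands, because this element is what ISGF3 binds. The sequences are those of RefSeq for GRCh38.p14 and are 300 bases long, most of them before a gene's start, and 10020 of the 13141 genes had one. The core was present in 289 of them (2.88%). Among the genes called lower it was present in 7 of 36 promoters (19.4%) and among the genes called higher in 2 of 76 (2.63%). Of the called interferon genes with a promoter sequence, 6 of 7 held it (85.7%), and IRF9 did not. The share among interferon genes of the list below that were not called was 28 of 54 (51.9%). In the genes called lower outside the list it was 1 of 29 (3.45%), that of ZFP36L1. A match is a description of the letters and not a test of binding. Stretches upstream of the start that hold the core are shown for 5 genes because they are the part of the promoter that the called interferon genes share. Each is written 5′ to 3′ on the strand of its gene with the core in capitals, and in IFI27 the first of its 2 cores lies on the opposite strand and is shown as its reverse complement. The element of MX1 lies after the start and is not shown. The windows are chr14:94110603-94110675 for IFI27 (plus strand), chr13:42992257-42992316 for EPSTI1 (minus), chr1:78620350-78620409 for IFI44L (plus), chr1:27672251-27672373 for IFI6 (minus) and chr7:93118081-93118140 for SAMD9 (minus).
IFI27: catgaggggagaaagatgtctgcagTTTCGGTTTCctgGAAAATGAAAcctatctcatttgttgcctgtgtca
EPSTI1: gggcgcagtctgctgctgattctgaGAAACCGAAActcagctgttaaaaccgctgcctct
IFI44L: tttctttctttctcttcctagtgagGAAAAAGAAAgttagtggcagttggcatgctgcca
IFI6: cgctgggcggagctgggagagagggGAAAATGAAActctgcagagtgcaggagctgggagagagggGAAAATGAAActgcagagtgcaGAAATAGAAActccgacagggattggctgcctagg
SAMD9: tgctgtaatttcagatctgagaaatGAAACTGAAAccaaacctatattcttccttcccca
IFI6 carries 3 cores within 123 bases, IFI27 carries 2, and IFI44L has the same 60 bases once more farther upstream.

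A list of 79 interferon-stimulated genes of the table, chosen with earlier results of these data known, was then described by role. Of these, 8 were lower (among them the genes above) and 0 higher, against 0.426% and 0.715% of all genes. The median log2 fold change of the list was -0.22, beside -0.0002 for all genes, and 63 of 79 members were below 0. Its mean log2 signal per array was 8.80, 8.80 and 9.07 with SCR and 8.49, 8.58 and 8.78 with KDM5C shRNA, so that each KDM5C shRNA array was below the SCR arrays of its own chip. Among the 40 antiviral effectors 6 were called lower and the median was -0.28. Members just short of the call included IFIT1, which binds viral RNA caps, at 10.23, 10.17 and 10.53 with SCR and 9.47, 9.50 and 9.72 with KDM5C shRNA (log2 fold change -0.75, SE 0.20, adjusted p = 0.0511). IFI44, the paralog of IFI44L, had a log2 fold change of -0.82 (SE 0.29, adjusted p = 0.131), and ISG20, an exonuclease, of -0.26 (adjusted p = 0.624). The kinase EIF2AK2 (PKR) and the TRIM ligase TRIM22 passed the adjusted p at log2 fold changes of -0.49 each (adjusted p = 0.0301 and 0.0153) but not the fold threshold.

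Among the 11 receptors, kinases and transcription factors of the pathway, IRF9 was the called member, and the median was -0.12. STAT2, its partner in ISGF3, had a log2 fold change of -0.45 (SE 0.20, adjusted p = 0.228). The 4 RNA sensors had a median of -0.19, with IFIH1 (MDA5) passing the adjusted p at -0.47 (adjusted p = 0.0320) below the fold threshold. The 11 genes of ISG15 conjugation and the PARP family had a median of -0.13, with 7 below 0 and 0 calls. With 0.426% of all genes called lower, counts in roles this small are not read as a difference between roles. ISG15, the ubiquitin-like modifier itself, had a log2 fold change of -0.07 (SE 0.20, adjusted p = 0.901), and DTX3L, a ubiquitin ligase that partners PARP9, of 0.41 (SE 0.18, adjusted p = 0.224). The 13 antigen presentation genes had a median of -0.20, with 1 called lower and TAP1, HLA-E and HLA-F passing the adjusted p alone (adjusted p = 0.0148, 0.0147 and 0.0455). The number of called members depended on the chip term and on single arrays: it was 2 without the chip term and 4 to 7 when 1 of the 6 arrays was left out, while the median stayed between -0.27 and -0.19.

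The other large falls were of varied function. TXNIP, the inhibitor of thioredoxin that also restrains glucose uptake, read 10.19, 10.33 and 11.34 with SCR and 9.31, 9.06 and 10.11 with KDM5C shRNA (log2 fold change -1.13, SE 0.24, adjusted p = 0.0130). Its call was lost without KDM5C shRNA replicate 2 (adjusted p = 0.0513) or 3 (0.0639) and without the chip term (0.353). LUM, the matrix proteoglycan lumican, was 1.82-fold lower (SCR 8.34, 7.98 and 8.24, KDM5C shRNA 7.12, 7.25 and 7.60, adjusted p = 0.000587). BAMBI, a decoy receptor for the TGF-beta family, was 1.78-fold lower (SCR 10.88, 10.90 and 10.77, KDM5C shRNA 10.04, 10.20 and 9.81, adjusted p = 0.00125). C4ORF18 was 2.07-fold lower with an adjusted p of 3.31e-06 (SCR 8.34, 8.31 and 8.56, KDM5C shRNA 7.14, 7.45 and 7.47). The arrays of these 3 genes were clearly separated.

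Falls resting on less even arrays were those of CFI, LOC644936 and ANXA2P1. CFI, complement factor I, read 8.92, 8.61 and 9.71 with SCR and 7.96, 7.61 and 9.15 with KDM5C shRNA, so that the groups overlapped before the chip was taken into account (log2 fold change -0.84, SE 0.23, adjusted p = 0.0494). Its call was lost without any 1 of the 6 arrays (adjusted p up to 0.204), with the replicate number in place of the chip (0.0548) and under cyclic loess scaling (0.0521). LOC644936, a transcribed pseudogene, read 12.03, 11.26 and 11.23 with SCR and 10.86, 10.24 and 10.31 with KDM5C shRNA (log2 fold change -1.04, SE 0.28, adjusted p = 0.0478), and without SCR replicate 1 the adjusted p was 0.224. It was 0.0586 with the replicate number in place of the chip and 0.0686 with trend and robust moderation. ANXA2P1, a pseudogene of annexin A2, read 12.54, 11.79 and 12.28 with SCR and 11.40, 11.13 and 11.46 with KDM5C shRNA (log2 fold change -0.87, SE 0.20, adjusted p = 0.0218). The parent gene ANXA2 had a log2 fold change of 0.05 (SE 0.09, adjusted p = 0.857), and a pseudogene's probe may read its parent in part. Without SCR replicate 1 the adjusted p of ANXA2P1 was 0.136.

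Since KDM5C shRNA was used where VHL was present, HIF targets were described as a group. Of 29 in the table, 2 were higher (CCND1 and CA12) and 2 lower (STC2 among them), against 0.715% and 0.426% of all genes, and the median was -0.04. CA12, a membrane carbonic anhydrase, read 8.63, 8.97 and 9.37 with SCR and 9.70, 9.73 and 10.31 with KDM5C shRNA (log2 fold change 0.92, SE 0.18, adjusted p = 0.00772). Its groups did not overlap, but the call was lost without SCR replicate 1 (adjusted p = 0.0513) or KDM5C shRNA replicate 3 (0.0524). STC2, a secreted stanniocalcin, read 10.06, 10.05 and 9.75 with SCR and 9.12, 9.48 and 8.67 with KDM5C shRNA (log2 fold change -0.86, SE 0.17, adjusted p = 0.00950), and without the chip term the adjusted p was 0.147. With replicate 3 of either group left out it was 0.0502 for KDM5C shRNA and 0.0520 for SCR. The glucose transporter SLC2A1 (-0.09, adjusted p = 0.717) and the prolyl hydroxylase EGLN3 (-0.04, adjusted p = 0.921) had log2 fold changes near 0. EPAS1, which encodes HIF2A, the HIF of 786-O cells, read 9.51, 9.13 and 10.00 with SCR and 10.28, 9.59 and 10.18 with KDM5C shRNA (log2 fold change 0.47, SE 0.21, adjusted p = 0.247), and its groups overlapped. VHL had a log2 fold change of 0.16 (adjusted p = 0.363). Its signal with SCR was 7.85 ± 0.07 in VHL+/+ and 7.77 ± 0.12 in VHL-/- cells (SD, n = 3), so the VHL status of the cells is not visible in this value. The hypoxia response element core, ACGTG, searched on both strands, was present in 27.6% of promoters of genes called higher and 16.7% of those called lower, beside 26.6% of all.

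Of 60 cell cycle genes 5 were higher (CCND1, HMGB2, STMN1, CDT1 and RB1) and 0 lower, against 0.715% and 0.426% of all genes. The list's median signal lay at the 86.2 percentile (65.4 for the interferon list), while the shares of all genes include dim ones. The median log2 fold change was 0.17, beside -0.0002 for all genes, and 46 of 60 members were above 0. Mean signal per array was 9.58, 9.62 and 9.23 with SCR and 9.74, 9.74 and 9.56 with KDM5C shRNA. SCR replicate 3, on chip 2, was the lowest of the 6 arrays, and without it the median was 0.07 and 3 members were called. By role, the 20 DNA replication genes had a median of 0.23, with CDT1, the licensing factor that loads the MCM helicase, called at 0.64 (SE 0.13, adjusted p = 0.0121). The helicase subunits MCM6 and MCM7 passed the adjusted p alone (0.0495 and 0.0350) at 0.37 each. The call of CDT1 was lost without SCR replicate 1 (adjusted p = 0.0763), SCR replicate 3 (0.0639) or KDM5C shRNA replicate 3 (0.0614) and without the chip term (0.0606). Of 25 mitosis genes HMGB2 and STMN1 were called, and the median was 0.17. The 15 genes of G1 control had a median of 0.01, and RB1, the retinoblastoma protein that holds back E2F, was called with CCND1, at 7.82, 7.85 and 7.59 with SCR and 8.65, 8.27 and 8.18 with KDM5C shRNA (log2 fold change 0.61, SE 0.13, adjusted p = 0.0122). The call of RB1 was lost without either of 2 arrays, with an adjusted p of up to 0.0597. The proliferation marker MKI67 had a log2 fold change of 0.11 (adjusted p = 0.652).

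The enzymes around H3K4 were described because KDM5C is one of them. Of 35 genes that add, remove or act with the mark 0 were called, beside 1.14% of all genes, and the median log2 fold change was -0.04. At that share 0 calls in a list of this size are not read as a result. The demethylase KDM5B, a paralog of KDM5C, read 8.76, 8.75 and 9.42 with SCR and 8.41, 8.40 and 8.75 with KDM5C shRNA. Its log2 fold change of -0.46 (SE 0.10) passed the adjusted p (0.0187) but not the fold threshold, and each KDM5C shRNA array was below the SCR arrays of its chip. The methyltransferase MLL had a log2 fold change of -0.32 (adjusted p = 0.0431) and L3MBTL2, a subunit of the PRC1.6 repressor complex that can contain KDM5C, of 0.31 (SE 0.07, adjusted p = 0.0218). Of 28 SWI/SNF subunits and kidney cancer suppressors 0 were called, again beside 1.14% of all genes, with a median of -0.05. PBRM1 read 7.38, 7.46 and 7.22 with SCR and 7.22, 7.41 and 7.24 with KDM5C shRNA (log2 fold change -0.06, 95% interval -0.31 to 0.19).

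Calls in the other lists are to be read against 0.715% of all genes higher and 0.426% lower. Of the table's 7 aldo-keto reductases, 3 were higher (AKR7A2, AKR7A3 and AKR1B10), beside TXNIP as the lower member of the same list. Of 20 other genes listed as targets of NRF2, the regulator that induces such enzymes under oxidative stress, 0 were called and their median was 0.0002. The aldo-keto reductases, AKR1B10 among them, were counted apart from these 20, so the count depends on that split and on which targets were listed. A part of NRF2 in their rise was not tested. Of 9 Arp2/3 subunits ARPC4 was called and the median was -0.04. ACTR3, another subunit, had a log2 fold change of -0.73 (SE 0.25, adjusted p = 0.111). IQGAP1, a scaffold of actin and of cell contacts, was 1.82-fold higher at 8.76, 8.46 and 8.24 with SCR and 9.32, 9.53 and 9.21 with KDM5C shRNA (adjusted p = 0.000263). Of 51 matrix and adhesion genes 1 was higher (IGSF3) and 1 lower, and 37 were below 0 with a median of -0.10. Of 5 genes of GAS6 and its receptors GAS6 was called. Of 31 genes of the ATF4 and unfolded protein response, SDF2L1, a chaperone cofactor of the endoplasmic reticulum, was higher (0.62, SE 0.12, adjusted p = 0.00772) and VLDLR, a lipoprotein receptor, lower (-0.65, SE 0.15, adjusted p = 0.0221). Both calls were lost without the chip term (adjusted p = 0.264 and 0.116) or without single arrays (up to 0.0504 for SDF2L1 and 0.123 for VLDLR). Of 28 cytokine and NF-kB genes 0 were called. IL6 had a log2 fold change of -0.55 (95% interval -1.52 to 0.42, adjusted p = 0.583) and IL8 of -0.62 (95% interval -2.27 to 1.02, adjusted p = 0.737). In the lists of sterol and fatty acid synthesis, glycolysis, the respiratory chain, the proteasome, heat shock proteins and germline genes 0 members were called, with medians from -0.07 to 0.10. Of 18 neuronal genes STMN3 was the called member.

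**Figure D3:**
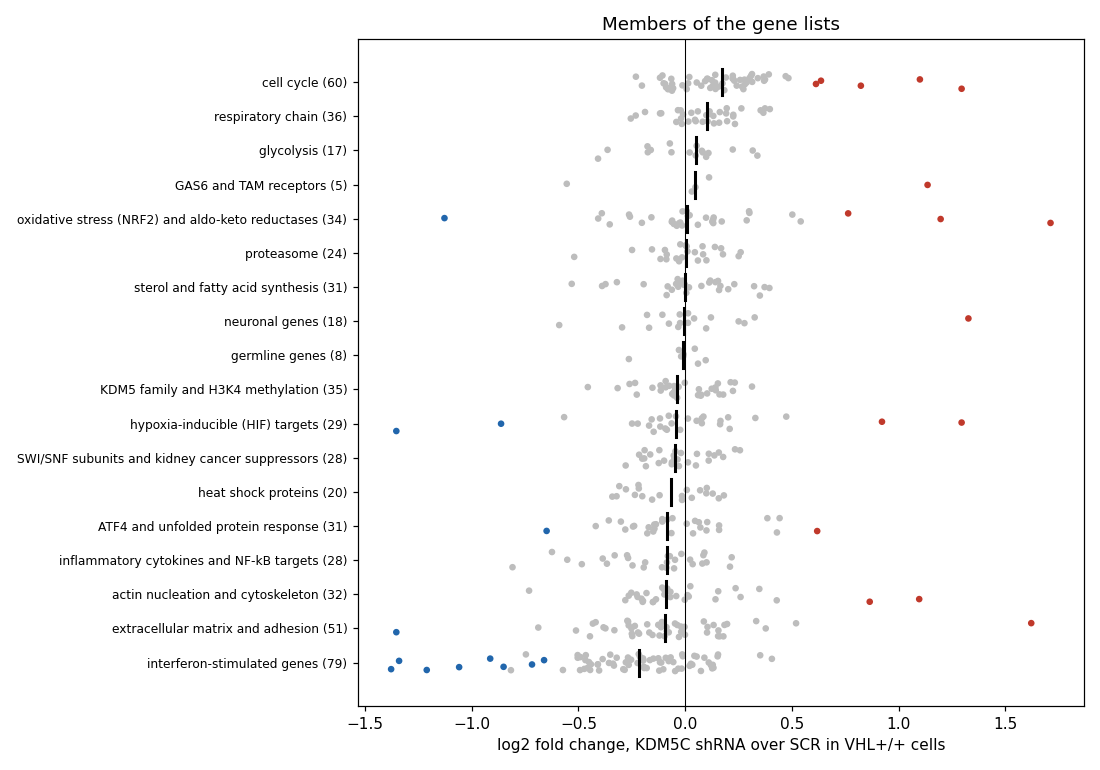
Log2 fold change of each member (points), KDM5C shRNA over SCR in VHL+/+ cells, for 18 gene lists ordered by their median (black bar), with the number of members in the table in brackets. Red members were called higher, blue lower and grey not called. The interferon list has the lowest median (-0.22) with 8 called members below 0, and the cell cycle list the highest (0.17) with 5 called members above 0.

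Further called genes, chosen for description after their values were seen, included several with known roles in carcinoma cells. MET, the receptor of hepatocyte growth factor, read 11.20, 11.09 and 11.18 with SCR and 10.50, 10.47 and 10.54 with KDM5C shRNA (log2 fold change -0.65, SE 0.13, adjusted p = 0.0121, up to 0.0632 with 1 array left out). DSG2, a desmosomal cadherin, was lower at -0.70 (SE 0.11, adjusted p = 0.00132), and CRYAB, a small heat shock protein, at -0.75 (SE 0.09, adjusted p = 0.000263). YAP1, the effector of Hippo signaling, and SNAI2, a repressor of epithelial genes, were lower at -0.71 and -0.63, both at an adjusted p of 0.0467 that rose to 0.226 and 0.201 with 1 array left out. Higher were E2F2, an activator of S-phase genes, at 0.89 (SE 0.12, adjusted p = 0.000532), LMNA, which encodes lamin A, at 0.68 (SE 0.09, adjusted p = 0.000348), and TPM1, an actin-binding tropomyosin, at 0.84 (SE 0.11, adjusted p = 0.000490). Also higher were PARP1, which responds to DNA breaks, at 0.74 (SE 0.13, adjusted p = 0.00512), and the translation factor EIF2S2 at 0.73 (SE 0.08, adjusted p = 0.000159). KRT19, a keratin of simple epithelia, was higher at 0.77 (SE 0.17, adjusted p = 0.0159, up to 0.0810 with 1 array left out).

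The chips were then considered separately, since 3130 genes differed between them. The genes were called on these same arrays, so agreement between chips or a lack of overlap is largely fixed by the call and is given as a description. All 150 called genes differed the same way on chip 1, with 2 arrays against 2, and on chip 2, with 1 array against 1. The change reached 1.5-fold in 134 of them on chip 1 and in 118 on chip 2, and the median difference between the chips was 0.16 on the log2 scale. IRF9 differed between chips more than most, at -1.10 on chip 1 and -0.36 on chip 2. As deposited, with no chip term, the 3 arrays of each group did not overlap in 89 of the 94 higher and 48 of the 56 lower genes, and in 17.9% of all genes tested. The share was 9.02% for genes higher on all 3 arrays, and once the chip effect was removed 26.2% of all genes did not overlap. Among the called genes 51 higher and 14 lower ones kept their call whichever of the 6 arrays was left out, and 4 higher and 2 lower ones were lost with any of them.

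**Figure D4:**
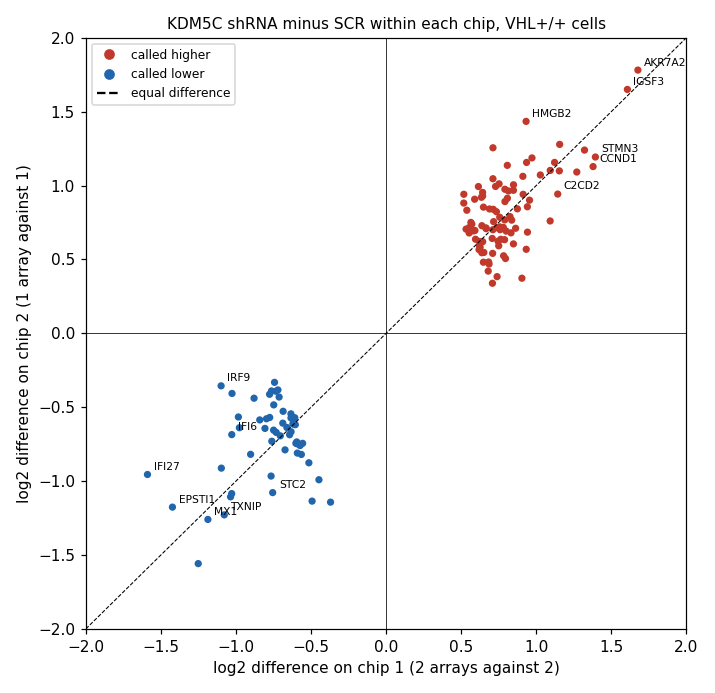
KDM5C shRNA minus SCR in log2 units on chip 1 (horizontal axis, 2 arrays against 2) and on chip 2 (vertical axis, 1 array against 1) for the 150 called genes in VHL+/+ cells. Red points were called higher and blue points lower, and the dashed line marks equal differences. All 150 points have the same sign on both chips, and IRF9 (-1.10 and -0.36) is among the farthest from the line.

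The same knockdown in VHL-/- cells gave 192 called genes (1.46%; higher 0.807%, lower 0.654%) against the SCR arrays of that background. Of the 150 genes called in VHL+/+ cells, 85 were called in the same direction there, 56.7% of the first list and 44.3% of the second. AKR7A2 (1.82), IGSF3 (1.85), CCND1 (1.34), GAS6 (1.19) and STMN3 (1.12) had log2 fold changes in VHL-/- cells close to those in VHL+/+ cells. For CCND1 the difference between the backgrounds was -0.05, with a 95% interval of -0.40 to 0.31. For IGSF3 it was -0.23, with an interval of -0.43 to -0.03 that leaves out 0 before adjustment (adjusted p = 0.548). Such a test of the difference over all genes, the interaction of KDM5C shRNA with VHL, called 0 genes by limma, and the smallest adjusted p was 0.144. Its median 95% interval reached 0.28 to either side, and at an unadjusted p under 0.05 it found 1014 genes (7.72%). Below that unadjusted threshold were 22 of the 94 higher and 24 of the 56 lower genes, and the change was the larger in VHL+/+ cells in 17 of each. These 94 and 56 genes were called on VHL+/+ arrays that also enter the difference. The counts and the side of the larger change are thus in part fixed by the call, and no conclusion is drawn from them. The 65 genes called in VHL+/+ but not in VHL-/- cells are therefore not shown to respond to KDM5C shRNA in VHL+/+ cells alone.

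Some of the genes whose SCR arrays disagreed in VHL+/+ cells had values near 0 in VHL-/- cells. EPR1 read 8.81 ± 0.21 with SCR and 8.70 ± 0.40 with KDM5C shRNA in VHL-/- cells (SD, n = 3), a log2 difference of -0.11, and the difference of its effects between the backgrounds was 1.40 (95% interval 0.61 to 2.20, limma adjusted p = 0.354). For LOC389286 the change in VHL-/- cells was -0.08 and the difference 1.22 (95% interval 0.53 to 1.90, adjusted p = 0.354). For LOC644936 the value in VHL-/- cells was 0.24, opposite in sign to that in VHL+/+ cells, and the difference was -1.28 (95% interval -2.12 to -0.44, adjusted p = 0.413). The genes with the smallest p for the difference were HGS, an endosomal sorting protein (0.39 in VHL+/+ and -0.27 in VHL-/- cells), CMPK1, a nucleotide kinase (-0.32 and 0.27), and TCFL5, a transcription factor (-0.18 and 0.52). Their adjusted p were 0.144, 0.245 and 0.245. CA12 was at 0.92 in VHL+/+ and 0.37 in VHL-/- cells, a difference of 0.55 (95% interval 0.02 to 1.08, adjusted p = 0.624).

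The interferon genes had the smaller median change in VHL+/+ cells. Their median log2 fold change was -0.22 in VHL+/+ and -0.59 in VHL-/- cells, and 8 and 39 members were called lower, against 0.426% and 0.654% of all genes. Of the 79 members, 35 had an unadjusted p under 0.05 for the difference, against 7.72% of all genes. All 35 had the lower log2 fold change in VHL-/- cells, and 0 passed after adjustment. The list was chosen with earlier results of these data known, and the paper reports the fall of interferon-responsive genes in VHL-/- cells from these arrays. The count is thus in part fixed by that choice, and no conclusion is drawn from it. MX1 was 8.77 ± 0.50 with SCR and 7.56 ± 0.51 with KDM5C shRNA in VHL+/+ cells, and 10.24 ± 0.50 and 7.86 ± 0.19 in VHL-/- cells (SD, n = 3). The SCR level was thus the higher in VHL-/- cells and the levels with KDM5C shRNA lay closer together. The difference of the MX1 effects was 1.16 (95% interval 0.32 to 2.00, adjusted p = 0.463). IFI44L (-1.06 and -2.13) and SAMD9 (-0.66 and -1.35) had differences of 1.07 and 0.69, also with adjusted p above the threshold (0.463 and 0.443). ISG15 was at -0.07 and -0.93 (difference 0.86, 95% interval 0.25 to 1.47, adjusted p = 0.448).

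**Figure D5:**
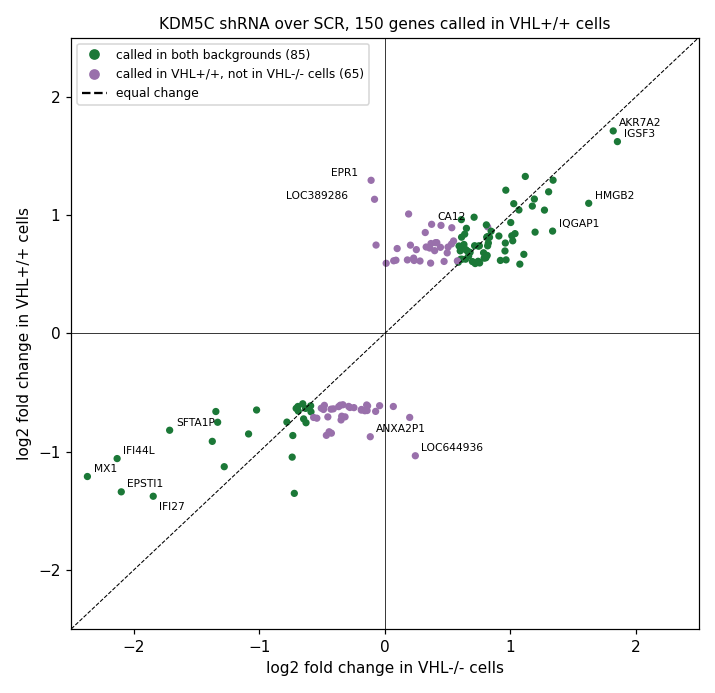
Log2 fold change of KDM5C shRNA over SCR in VHL-/- cells (horizontal axis) and in VHL+/+ cells (vertical axis) for the 150 genes called in VHL+/+ cells. Green points were also called in VHL-/- cells (85) and purple points were not (65), and the dashed line marks equal change. MX1, IFI44L, EPSTI1 and IFI27 lie left of the line, with the larger fall in VHL-/- cells, and EPR1 and LOC389286 lie near 0 on the horizontal axis.

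PBRM1 shRNA was compared with KDM5C shRNA in VHL+/+ cells directly, because both contrasts with SCR use the same SCR arrays. PBRM1 itself had a log2 fold change of -0.15 with PBRM1 shRNA against SCR (SE 0.12, limma adjusted p = 0.639). Its knockdown is thus not shown at the level of its mRNA, and that of KDM5C could not be checked. Between the KDM5C shRNA and the PBRM1 shRNA arrays 0 of 13141 genes were called by limma, the smallest adjusted p was 0.610, and 545 genes (4.15%) had an unadjusted p under 0.05. The median 95% interval reached 0.20 to either side before adjustment, and a lack of calls does not show that the knockdowns act alike. Against the shared SCR arrays, where PBRM1 shRNA called 124 genes (0.944%), the log2 fold changes with KDM5C and with PBRM1 shRNA were 1.71 and 1.64 for AKR7A2, 1.62 and 1.71 for IGSF3, and 1.30 and 1.37 for CCND1. For AKR7A2 the direct difference was 0.07 (95% interval -0.16 to 0.30). Among the falls they were -1.38 and -1.67 for IFI27 and -1.34 and -1.44 for EPSTI1. IFI27 had a direct difference of 0.30 (95% interval -0.25 to 0.84), and MET, at -0.65 and -0.30, one of -0.36 (95% interval -0.64 to -0.07, adjusted p = 0.995). The genes with the smallest p between the knockdowns were ALDOA, the glycolytic aldolase, at a log2 difference of 0.36 (95% interval 0.22 to 0.49, adjusted p = 0.610), FLJ46309 at -0.60 and SNAPC2, a subunit of the small nuclear RNA activating complex, at 0.42 (adjusted p = 0.625 each).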

How the data were processed

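RNA of 786-O cells was profiled on Illumina HumanHT-12_V4 bead chips, 18 arrays in 6 groups of 3. The authors preprocessed the raw data in Genome Studio and, in limma, forced background-corrected values to be positive, took log2 and applied quantile normalization. Probes had to be present at a detection level of 0.05, and several probes of a gene were averaged. The deposited values are these log2 intensities. Whether a batch correction made for heat maps also entered them is not given in the sources used here. Arrays have no read depth, and their number limits the precision.

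From these values limma 3.58.1 in R 4.3.3 fitted the 6 group means and the chip to all 18 arrays (11 residual degrees of freedom), with empirical Bayes moderation and Benjamini-Hochberg adjustment over all genes. A call needed an adjusted p below 0.05 with a fold change of 1.5 or more. Contrasts were the KDM5C shRNA effect in VHL+/+ cells, its difference from the effect in VHL-/- cells, and KDM5C against PBRM1 shRNA in VHL+/+ cells. The fit was tested on simulated data. Gene lists were described by counts and medians and not tested. Of 634 listed symbols, 561 are in the table. The members and lists were chosen with earlier results of these data known.

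Named genes are the 15 largest rises and 15 largest falls among called genes whose arrays did not overlap after the chip effect was removed, genes measured by RT-PCR in the study, PBRM1, KDM5C, VHL, HIF1A and EPAS1, called members of the lists (up to 4 each way, and the 2 of smallest p where none was called), the 3 of smallest p in the other contrasts and the 3 of highest signal (ACTG1, LOC91561 and TMSB10). Other genes were named for their role after their values were seen. Symbols were compared with RefSeq for GRCh38.p14, and 10777 equal a current symbol. Alternatives left out the chip term, put a replicate block in its place, used only the arrays compared, a fold threshold of 2 or none, or chip 1 only, left out the dimmest 0.25 of genes or each array in turn, and applied median centring, cyclic loess, or trend and robust moderation. Some genes of these lists and ranks are not reported here.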

Additional observations from a re-analysis of the deposited data

How the results depend on the processing

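For KDM5C shRNA against SCR in VHL+/+ cells the 150 called genes became 88 (67 higher, 21 lower) without the chip term, 23 at a fold change of at least 2 and 551 at adjusted p alone. With 1 of the 6 arrays left out the count was 104 to 176, and the other settings gave 129 (chip 1 only) to 170 (only the arrays compared). With the replicate block in place of the chip it was 146, of which 145 were among the 150, and the calls lost included CFI and LOC644936. Deviations of KDM5C shRNA and SCR arrays with the same number correlated at 0.230, 0.415 and 0.702 as deposited and at 0.0666, 0.0763 and 0.0653 once the chip was removed, so the numbers of these 2 groups share little beyond the chip. Between KDM5C and PBRM1 shRNA arrays of VHL+/+ cells, with the chip removed, same numbers gave -0.438, -0.126 and -0.169. Different numbers gave -0.233 to 0.302. The model has no term for such structure beyond the chip. The KDM5C shRNA effect in VHL+/+ minus VHL-/- cells went from 0 genes to 4 on chip 1 only and to between 0 and 13 with 1 array left out. The 13 arose when replicate 3 of SCR was dropped from the VHL-/- group, and 1 gene when it was dropped from the VHL+/+ group. KDM5C against PBRM1 shRNA gave 0 in every setting run. Among the genes named by rule the sign turned in 2, neither of them called in any of these fits: IL8, from -0.62 to 0.05 without KDM5C shRNA replicate 1 and to 0.22 without SCR replicate 3 (range with 1 array left out -1.475 to 0.22), and TMSB10, from -0.14 to 0.0234 without KDM5C shRNA replicate 1 (range -0.29 to 0.0234). The cause of these changes was not tested.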
